A study of Homo sapiens with 18 samples.

Results

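The 10 genes described here belong to the Notch pathway: 3 receptors (NOTCH1, NOTCH2 and NOTCH3), 3 ligands (JAG1, JAG2 and DLL1) and 4 target genes (HES1, HES4, HEY1 and NRARP). They were chosen by gene symbol from 40916 symbols, and all 10 were found in each of the 18 count tables. A further 46 genes of the pathway are given as a list after them. Levels are in CPM, the counts of a gene divided by its library total and scaled by 1e+06, and every ± is the SD over 3 libraries.

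Polyadenylated RNA was sequenced from 2 human cell lines grown alone or together. MCF10A cells (mammary epithelium, not tumour-derived, labelled with the H2B-GFP nuclear reporter) were kept in F12:DMEM with horse serum, EGF, hydrocortisone, cholera toxin and insulin. HCT116 cells (colorectal carcinoma, unlabelled, described as p53-null) were kept in McCoy's 5A with fetal bovine serum. The third kind of culture held both lines, described as mixed in equal parts, and its medium is not given. Each was either non-irradiated (NIR) or exposed to 10 Gy of radiation (IR), which gives 6 groups of 3 libraries, named below by culture and treatment, such as MCF10A NIR or Mixed IR. Sample titles give day 2 as the time, and the series text 72 h. Cell line, genotype, reporter and medium differ together between the monocultures, so their parts in a difference cannot be told apart.

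Library totals ranged from 25.7 to 40.8 M counts (M, a factor of 1e+06). The line labels were checked with KRT5, a basal keratin, at 2883 ± 133.1 CPM in MCF10A NIR and 0.117 ± 0.152 in HCT116 NIR. CDX2, an intestinal transcription factor, stood at 10.0 ± 1.14 CPM in HCT116 NIR and had no counts in MCF10A. Of 10 basal mammary markers, 10 had a mean of at least 1 CPM in MCF10A NIR. Of 10 intestinal markers only 2 did in HCT116 NIR, and 2 had no counts there. Of 6 fibroblast markers DCN and COL1A1 had a mean of at least 1 CPM in MCF10A and COL3A1 had no counts there, with sums of 121.1 to 133.0 CPM in MCF10A NIR and 247.0 to 261.8 in MCF10A IR, whose part in the responses was not tested. None of 4 white blood cell markers had a mean of 1 CPM in any group. CDKN1A, the cell-cycle inhibitor p21, rose after 10 Gy by 1.76, 2.33 and 2.19 on the log2 scale in MCF10A, HCT116 and mixed cultures. MKI67, a proliferation marker, fell by 1.57, 1.84 and 1.82 (all adjusted p-values from edgeR's quasi-likelihood test under 0.05).

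The mixed libraries held little MCF10A RNA. MCF10A RNA was estimated from genes of at least 20 CPM in a line that stayed below 1 CPM in each library of the other. The estimate was 0.447% ± 0.0528 of the counts in Mixed NIR (0.504%, 0.438% and 0.399%) and 1.24% ± 0.0662 in Mixed IR (1.29%, 1.17% and 1.27%). Counts of these genes in the other line were not subtracted, so the estimates may be too high, which the SD does not cover. As a ratio of summed CPM the means were 0.704% and 2.17%. The mixed libraries are therefore given below beside HCT116. In such bulk samples fewer MCF10A cells and less RNA per MCF10A cell cannot be told apart.

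Notch receptors sit in the cell membrane and are bound by Jagged and Delta-like ligands on neighbouring cells. Binding exposes the receptor to ADAM proteases and then gamma-secretase, and the freed intracellular domain enters the nucleus, where it joins the DNA-binding protein RBPJ and a Mastermind coactivator. The best known targets are HES and HEY genes, which encode transcriptional repressors, and NRARP, which encodes an inhibitor of the same complex. In the mammary gland and the intestine the pathway is known for its part in the choice between cell fates.

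The promoters of HES1, HES4 and NRARP are shown because these targets fell together in irradiated HCT116 and differ in whether they hold RBPJ site letters. Sequences are from RefSeq (GRCh38.p14), 250 bases ending just before the RefSeq start site, read 5′ to 3′ on the strand of the gene. Capitals mark each match to the RBPJ site written as GTGNGAA, searched on both strands. HES1 is shown from chr3:194135898-194136147 (plus strand), HES4 from chr1:1000098-1000347 (minus strand) and NRARP from chr9:137302272-137302521 (minus strand). The end of the HES4 window lies inside the longer HES4 gene model of GENCODE 29.
HES1: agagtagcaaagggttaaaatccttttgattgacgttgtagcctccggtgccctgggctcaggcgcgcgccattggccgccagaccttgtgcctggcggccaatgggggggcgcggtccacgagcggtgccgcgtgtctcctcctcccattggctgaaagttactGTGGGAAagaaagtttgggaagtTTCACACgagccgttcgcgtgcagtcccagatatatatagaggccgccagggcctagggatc
HES4: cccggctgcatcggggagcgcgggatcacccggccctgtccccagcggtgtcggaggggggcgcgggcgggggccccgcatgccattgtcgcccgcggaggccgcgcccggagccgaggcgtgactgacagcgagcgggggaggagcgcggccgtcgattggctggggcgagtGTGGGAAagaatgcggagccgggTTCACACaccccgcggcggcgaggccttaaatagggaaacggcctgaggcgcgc
NRARP: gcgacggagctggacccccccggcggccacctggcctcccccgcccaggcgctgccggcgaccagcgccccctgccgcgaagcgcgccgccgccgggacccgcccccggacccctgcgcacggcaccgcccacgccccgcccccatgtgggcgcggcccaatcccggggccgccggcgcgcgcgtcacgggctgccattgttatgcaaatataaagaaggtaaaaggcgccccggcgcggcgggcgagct
HES1 and HES4 held 2 matches each, and NRARP and the 5 other members found in the table held none. DLL1 and HEY1 were not matched. Of 35116 promoters of this length in the table, 11.6% held at least 1 match and 0.906% held 2 or more. In HES1 and HES4 the matches face each other, GTGNGAA first and its reverse complement after it, with 16 bases between them. This pair spanned positions -85 to -56 before the RefSeq start in HES1 and -77 to -48 in HES4. Most of the HES4 pair lies inside the longer GENCODE 29 gene model (chr1:998962-1000172). Such a pair within 30 bases was found in 30 promoters (0.0854%), and the search for it was chosen after the sequences were seen. The letters CACNAG, an N box that HES proteins bind, occurred 3 times in the HES1 window and once in that of NOTCH3, and in 32.0% of all promoters. These are matches of letters only; no binding was measured.

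**Figure D1:**
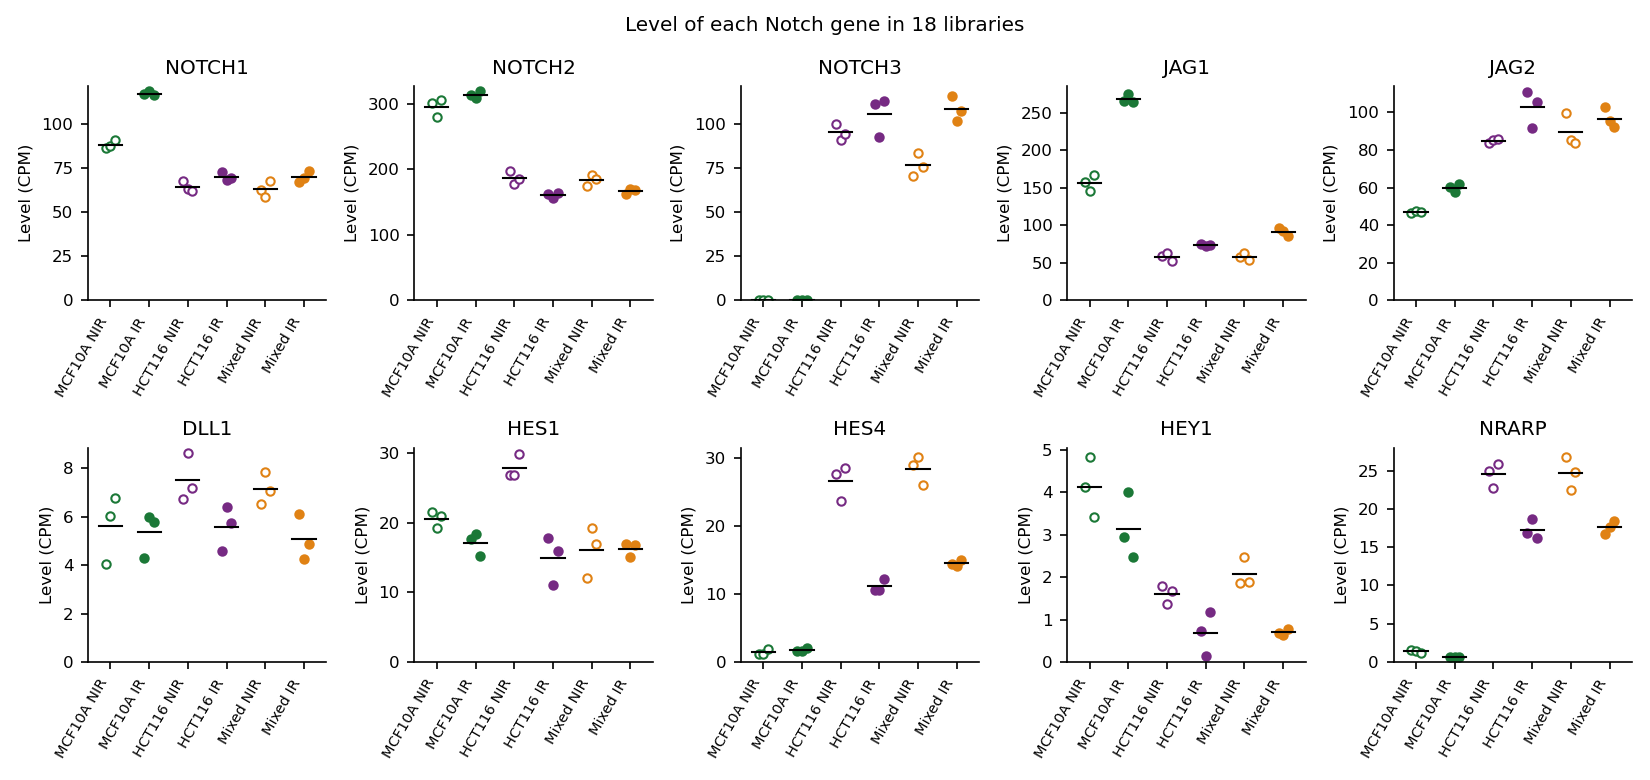
Level of each gene in CPM (vertical axis, linear from 0) in the 18 libraries, by group on the horizontal axis. Open points are non-irradiated and filled points irradiated libraries, and black lines are means of 3. NOTCH3, HES4 and NRARP lie near 0 in MCF10A and well above it in HCT116 and mixed cultures, whereas JAG1 is highest in irradiated MCF10A.

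NOTCH3 was almost without counts in MCF10A and well expressed in HCT116, while NOTCH1 and NOTCH2 were higher in MCF10A. After 10 Gy NOTCH1 rose in MCF10A and NOTCH2 fell in HCT116 and in mixed cultures.

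NOTCH1 lies at chr9:136494433-136545786 (minus strand, 33 merged exons; all gene positions are from GENCODE 29 on GRCh38). Its level was 86.3, 87.3 and 90.6 CPM in MCF10A NIR and 116.9, 118.4 and 116.1 in MCF10A IR. It was 67.4, 63.3 and 61.7 CPM in HCT116 NIR and 72.6, 68.0 and 69.3 in HCT116 IR. Mixed NIR libraries had 62.5, 58.7 and 67.8 CPM, and Mixed IR had 67.0, 69.2 and 73.3. Every irradiated MCF10A library was above every other library, the non-irradiated MCF10A libraries came next, and the HCT116 and mixed groups followed close together. The rise in MCF10A was 0.39 on the log2 scale (SE 0.049, adjusted p 8.7e-08). In HCT116 the difference was 0.13 (SE 0.066, adjusted p 0.097) and in mixed cultures 0.12 (SE 0.069, adjusted p 0.15), which did not pass. One fit over all 18 libraries called both, at 0.15 and 0.16. Between the lines NOTCH1 was lower in HCT116 by log2 -0.66 (SE 0.060) without and -0.97 (SE 0.054) with irradiation, with adjusted p 1.7e-08 and 9.6e-15.

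NOTCH2 lies at chr1:119911553-120069626 (minus strand, 38 merged exons). The near-copies NOTCH2NLA, NOTCH2NLB, NOTCH2NLC and NOTCH2NLR have rows of their own with counts (773 to 806 for NOTCH2NLC in MCF10A NIR), so reads may have been split among them and its level is uncertain. Its level was 300.4, 279.2 and 305.7 CPM in MCF10A NIR and 313.6, 307.9 and 318.6 in MCF10A IR. HCT116 NIR had 197.9, 177.4 and 184.5 CPM, and HCT116 IR 162.3, 155.4 and 163.8. The mixed libraries stood beside HCT116, at 174.3, 191.5 and 184.9 CPM in Mixed NIR and 161.8, 169.5 and 167.9 in Mixed IR. All irradiated HCT116 and mixed libraries were below all non-irradiated libraries of the same culture, and MCF10A was above both throughout. NOTCH2 fell in HCT116 by 0.21 on the log2 scale (SE 0.059, adjusted p 0.0047). In mixed cultures it fell by 0.17 (SE 0.057, adjusted p 0.018), a call lost with upper-quartile factors (adjusted p 0.056), without Mixed NIR replicate 2 (0.085) and without Mixed IR replicate 1 (0.062). In MCF10A the difference was 0.07 (SE 0.042, adjusted p 0.19), and with upper-quartile factors it was called at 0.15. HCT116 was below MCF10A by log2 -0.86 (SE 0.055) without irradiation and -1.20 (SE 0.047) after it, with adjusted p 1.2e-10 and 4.3e-18.

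NOTCH3 lies at chr19:15159038-15200981 (minus strand, 33 merged exons). The 3 MCF10A NIR libraries held 2, 0 and 6 counts of it and the 3 MCF10A IR libraries 7, 10 and 2, which is 0.0879 ± 0.106 and 0.227 ± 0.155 CPM. HCT116 NIR had 99.98, 90.9 and 94.5 CPM and HCT116 IR 111.3, 92.6 and 112.7. Mixed NIR had 70.6, 83.7 and 75.8 CPM and Mixed IR 115.6, 101.4 and 107.5. MCF10A and the other cultures were far apart, and Mixed NIR was the lowest of the groups that expressed the gene. The log2 difference of HCT116 from MCF10A was 9.93 (SE 0.206, adjusted p 1.5e-17) without irradiation and 8.69 (SE 0.173, adjusted p 2.0e-24) with it. It rests on 8 and 19 counts in all MCF10A libraries of the treatment, and its size depends on the prior count that edgeR adds. In MCF10A the gene did not pass the filter on low counts and its response was not tested. In mixed cultures NOTCH3 rose after 10 Gy by 0.47 (SE 0.072, adjusted p 1.3e-05). In HCT116 the difference was 0.16 (SE 0.071, adjusted p 0.072), with overlapping libraries, and without HCT116 IR replicate 2, the lowest irradiated library, it was 0.24 and called (adjusted p 0.0086).

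Per kilobase of exon, which allows levels of different genes to be compared, NOTCH2 was 67.4% ± 0.918 and NOTCH1 32.6% ± 0.936 of the 3 receptors in MCF10A NIR. NOTCH3 was 0.0350% ± 0.0416 of them. In HCT116 NIR the shares were 40.5% ± 0.356 for NOTCH2, 36.9% ± 0.290 for NOTCH3 and 22.6% ± 0.569 for NOTCH1. In HCT116 IR NOTCH3 had 40.7% ± 2.02 and NOTCH2 34.7% ± 1.15, so their order by mean was exchanged. These lengths are those of GENCODE 29 with all exons of a gene merged, 16.8 kb for NOTCH2 and 9.39 kb for NOTCH3. In CPM NOTCH2 stayed above NOTCH3 in HCT116 IR (160.5 and 105.5), so the order there depends on the lengths used. The annotation behind the counts is not given in the sources used here.

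**Figure D2:**
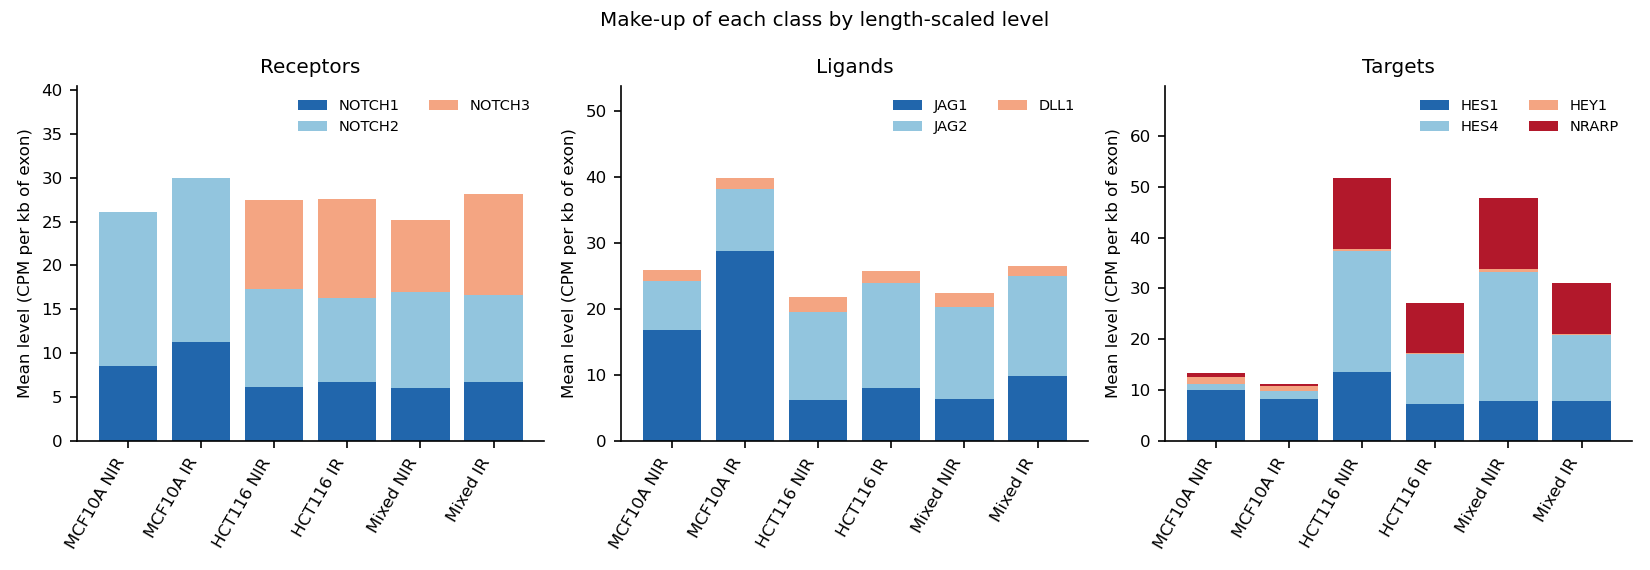
Mean level per kilobase of merged exon (CPM per kb, vertical axes from 0, each with its own scale) of the receptors, ligands and targets, stacked by gene for the 6 groups on the horizontal axes. Bars are means of 3 libraries without error bars. NOTCH3 is near 0 in MCF10A, JAG1 is the largest ligand part in MCF10A and JAG2 in the other cultures, and the stacks of target genes shrink after irradiation in HCT116 and mixed cultures.

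JAG1 was the ligand that responded to radiation in every culture, and it was the main ligand of MCF10A. JAG2 was the main ligand of HCT116. DLL1 was low everywhere and fell in the cultures that hold HCT116.

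JAG1 lies at chr20:10637684-10673999 (minus strand, 24 merged exons). An exon of AL050403.2 overlaps it on the opposite strand; the strand setting of the counting is not given in the sources used here, so reads of that gene may be part of its count. Its level was 157.2, 145.9 and 167.6 CPM in MCF10A NIR and 265.2, 274.6 and 264.4 in MCF10A IR. It was 58.9, 62.7 and 52.9 CPM in HCT116 NIR and 75.4, 72.8 and 74.0 in HCT116 IR. Mixed NIR had 58.5, 63.1 and 53.7 CPM and Mixed IR 96.5, 92.7 and 86.0. In each culture all irradiated libraries were above all non-irradiated ones, and Mixed IR was above HCT116 IR in every library. The log2 rise of JAG1 was 0.75 in MCF10A (SE 0.047, adjusted p 8.5e-14), 0.36 in HCT116 (SE 0.070, adjusted p 1.5e-04) and 0.62 in mixed cultures (SE 0.072, adjusted p 3.3e-07). Between the lines it was lower in HCT116 by log2 -1.63 (SE 0.067, adjusted p 2.1e-13) without irradiation and by -2.09 (SE 0.050, adjusted p 1.3e-22) after it, or 3.09-fold and 4.24-fold.

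JAG2 lies at chr14:105140981-105168824 (minus strand, 25 merged exons), and shares exon bases with AL512356.1 on the same strand, so its count is uncertain to that extent. Its level was 46.5, 47.6 and 47.0 CPM in MCF10A NIR and 60.4, 57.5 and 62.0 in MCF10A IR. It was 83.7, 85.5 and 85.6 CPM in HCT116 NIR and 110.8, 91.6 and 105.6 in HCT116 IR. Mixed NIR had 99.7, 85.1 and 83.6 CPM and Mixed IR 102.8, 95.2 and 92.2. The monocultures did not overlap between treatments, whereas the mixed libraries did. The rise was 0.33 (SE 0.061, adjusted p 3.9e-05) in MCF10A and 0.28 (SE 0.069, adjusted p 0.0015) in HCT116. In mixed cultures the difference was 0.09 (SE 0.071, adjusted p 0.32; 95% interval -0.05 to 0.23). HCT116 was above MCF10A by 0.65 (SE 0.061, adjusted p 2.3e-08) without and 0.54 (SE 0.065, adjusted p 3.8e-08) with irradiation.

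DLL1, a Delta-like ligand, lies at chr6:170282206-170306565 (minus strand, 12 merged exons). Its level was 4.06, 6.03 and 6.80 CPM in MCF10A NIR and 4.30, 5.98 and 5.79 in MCF10A IR. It was 6.74, 8.64 and 7.20 CPM in HCT116 NIR and 4.60, 6.39 and 5.75 in HCT116 IR. Mixed NIR had 6.51, 7.84 and 7.09 CPM and Mixed IR 6.12, 4.28 and 4.89. The treatments did not overlap in HCT116 or in mixed cultures, but the gap was small against the spread. DLL1 fell by 0.52 in mixed cultures (SE 0.167, adjusted p 0.014), which was lost without Mixed NIR replicate 2 (adjusted p 0.058) or Mixed IR replicate 2 (0.076). In HCT116 it fell by 0.42 (SE 0.168, adjusted p 0.039). That call was lost with DESeq2 (0.052), in one fit over all libraries (0.08) and without HCT116 NIR replicate 2 (0.19), HCT116 IR replicate 1 (0.18) or HCT116 IR replicate 3 (0.073). In MCF10A the value was -0.09 (SE 0.188, adjusted p 0.72). HCT116 against MCF10A did not pass, at 0.22 (95% interval -0.16 to 0.60, adjusted p 0.31) without and -0.17 (-0.54 to 0.20, adjusted p 0.41) with irradiation.

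Per kilobase, JAG1 was 64.9% ± 1.94 of the 3 ligands in MCF10A NIR and JAG2 28.4% ± 1.54. In HCT116 NIR the order was the other way round, with JAG2 at 60.8% ± 2.09 and JAG1 at 28.6% ± 1.63. DLL1 took 6.70% ± 1.52 and 10.7% ± 1.03.

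All 4 target genes among the members were called lower in irradiated HCT116, HES4 with the smallest adjusted p. Over all genes 27.2% were called lower there. Of the 7 further receptors, ligands and targets tested there, 4 were called lower, 2 were not called and 1 was called higher. The last was HES2, which rose by 1.93 on the log2 scale. The HEY1 call there was lost in 5 of 15 other settings. HES4 and NRARP were low in MCF10A, where HES1 was the main target. HEY1 was higher in MCF10A, and HES1 differed little between the lines. Mitochondrially encoded genes moved with irradiation in the same libraries, from 8.42% to 8.75% of counts in HCT116 NIR to 11.5% to 12.3% in HCT116 IR. Their share was 8.37% to 8.73% in Mixed NIR and 12.0% to 12.7% in Mixed IR, and 5.10% to 5.32% in MCF10A NIR and 6.06% to 6.35% in MCF10A IR. Without mitochondrial and top 10 genes the calls of the 4 targets in HCT116 held. The member median there was -0.317, beside -0.316 in the main fit. As the removal left the fit nearly unchanged, it cannot decide whether this shift has a part in the falls, which was not tested.

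HES1 lies at chr3:194136145-194138732 (plus strand, 3 merged exons) and encodes a basic helix-loop-helix repressor. Its level was 21.5, 19.3 and 20.9 CPM in MCF10A NIR and 17.6, 18.4 and 15.2 in MCF10A IR. It was 26.9, 26.9 and 29.8 CPM in HCT116 NIR and 17.8, 11.0 and 15.9 in HCT116 IR. Mixed NIR had 12.0, 19.2 and 17.0 CPM and Mixed IR 16.9, 15.1 and 16.8. HCT116 NIR was above every other library, and Mixed NIR overlapped the irradiated groups. HES1 fell by 0.90 in HCT116 (SE 0.128, adjusted p 2.8e-06), and this call held in all 15 other settings. In mixed cultures the difference was -0.02 (SE 0.132, adjusted p 0.93; 95% interval -0.27 to 0.24). The fall of 0.29 in MCF10A (SE 0.098, adjusted p 0.013) was lost with upper-quartile factors (0.079), in one fit over all libraries (0.091), without MCF10A NIR replicate 1 (0.055) and without MCF10A IR replicate 3 (0.098).

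Between the lines HES1 was called in opposite directions by treatment. It was higher in HCT116 NIR by 0.24 (SE 0.092, adjusted p 0.026) and lower in HCT116 IR by log2 -0.43 (SE 0.136, adjusted p 0.0062), where the libraries overlapped. The first call was lost without the low-count filter (adjusted p 0.07), in one fit (0.14) and without MCF10A NIR replicate 2 (0.12), MCF10A NIR replicate 3 (0.061) or HCT116 NIR replicate 3 (0.13). The second was lost with upper-quartile factors (-0.25, adjusted p 0.096), with library size alone (-0.20, adjusted p 0.19) and without HCT116 IR replicate 2 (-0.25, adjusted p 0.066). Under these scalings the all-gene median of HCT116 against MCF10A went from 0.049 to 0.252 and 0.248 without irradiation and from 0.037 to 0.22 and 0.267 with it.

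HES4, a close relative of HES1, lies at chr1:998962-1000172 (minus strand, 2 merged exons). Its level was 1.24, 1.24 and 1.84 CPM in MCF10A NIR and 1.62, 1.57 and 2.00 in MCF10A IR. It was 27.7, 23.7 and 28.6 CPM in HCT116 NIR and 10.5, 10.7 and 12.2 in HCT116 IR. Mixed NIR had 28.98, 30.2 and 26.1 CPM and Mixed IR 14.4, 14.1 and 15.0. Every irradiated HCT116 or mixed library was well below its non-irradiated counterparts, and all were above MCF10A. HES4 fell by 1.26 in HCT116 (SE 0.109, adjusted p 1.3e-09) and by 0.99 in mixed cultures (SE 0.092, adjusted p 1.2e-08). In MCF10A the difference was 0.25 (SE 0.318, adjusted p 0.52), on 140 and 155 counts in all. HCT116 was 16.3-fold above MCF10A without irradiation (log2 4.03, SE 0.165, adjusted p 2.0e-13) and 5.44-fold after it (log2 2.44, SE 0.182, adjusted p 4.2e-12).

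HEY1, another basic helix-loop-helix repressor, lies at chr8:79764010-79767863 (minus strand, 4 merged exons). Its level was 4.12, 4.82 and 3.42 CPM in MCF10A NIR and 2.94, 4.01 and 2.47 in MCF10A IR. It was 1.79, 1.37 and 1.67 CPM in HCT116 NIR and 0.731, 0.147 and 1.17 in HCT116 IR, the last from 24, 6 and 30 counts. Mixed NIR had 1.86, 2.48 and 1.89 CPM and Mixed IR 0.680, 0.642 and 0.773. MCF10A was above HCT116 in every library, and in HCT116 and mixed cultures the irradiated libraries were all below the non-irradiated ones. HEY1 fell in mixed cultures by 1.60 (SE 0.332, adjusted p 4.0e-04). The fall of 1.29 in HCT116 (SE 0.499, adjusted p 0.034) was lost in 5 of 6 fits that left out a library (adjusted p 0.053 to 0.13); only without HCT116 IR replicate 3 did it hold. Without HCT116 IR replicate 2, the lowest library, it was -0.77. In MCF10A the value was -0.42 (SE 0.221, adjusted p 0.11), with overlap, and without MCF10A IR replicate 2 it was -0.64 and called (adjusted p 0.029). HCT116 was below MCF10A by log2 -1.55 (SE 0.254, adjusted p 2.5e-05) and -2.51 (SE 0.434, adjusted p 1.1e-05) without and with irradiation.

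NRARP, the feedback inhibitor, lies at chr9:137300482-137302251 (minus strand, 1 exon). Its level was 1.59, 1.47 and 1.13 CPM in MCF10A NIR and 0.588, 0.657 and 0.617 in MCF10A IR. It was 25.02, 22.7 and 25.9 CPM in HCT116 NIR and 16.9, 18.7 and 16.2 in HCT116 IR. Mixed NIR had 26.7, 22.5 and 24.8 CPM and Mixed IR 16.7, 17.7 and 18.4. It was the target that fell in all 3 kinds of culture without overlap between treatments. The fall was 1.19 in MCF10A (SE 0.400, adjusted p 0.013), from 139 to 55 counts in all, and was lost without MCF10A NIR replicate 1 (adjusted p 0.052). It was 0.50 in HCT116 (SE 0.101, adjusted p 2.5e-04) and 0.51 in mixed cultures (SE 0.093, adjusted p 1.0e-04). HCT116 was above MCF10A 15.2-fold without irradiation (log2 3.93, SE 0.156, adjusted p 1.3e-13) and 23.7-fold after it (log2 4.56, SE 0.190, adjusted p 1.9e-17).

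Per kilobase, HES1 was 74.8% ± 1.498 of the 4 targets in MCF10A NIR and 26.2% ± 1.29 in HCT116 NIR. There HES4 was 46.1% ± 1.26 and NRARP 26.8% ± 0.252. HEY1 was 9.60% ± 1.93 in MCF10A NIR and 0.961% ± 0.0866 in HCT116 NIR.

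**Figure D3:**
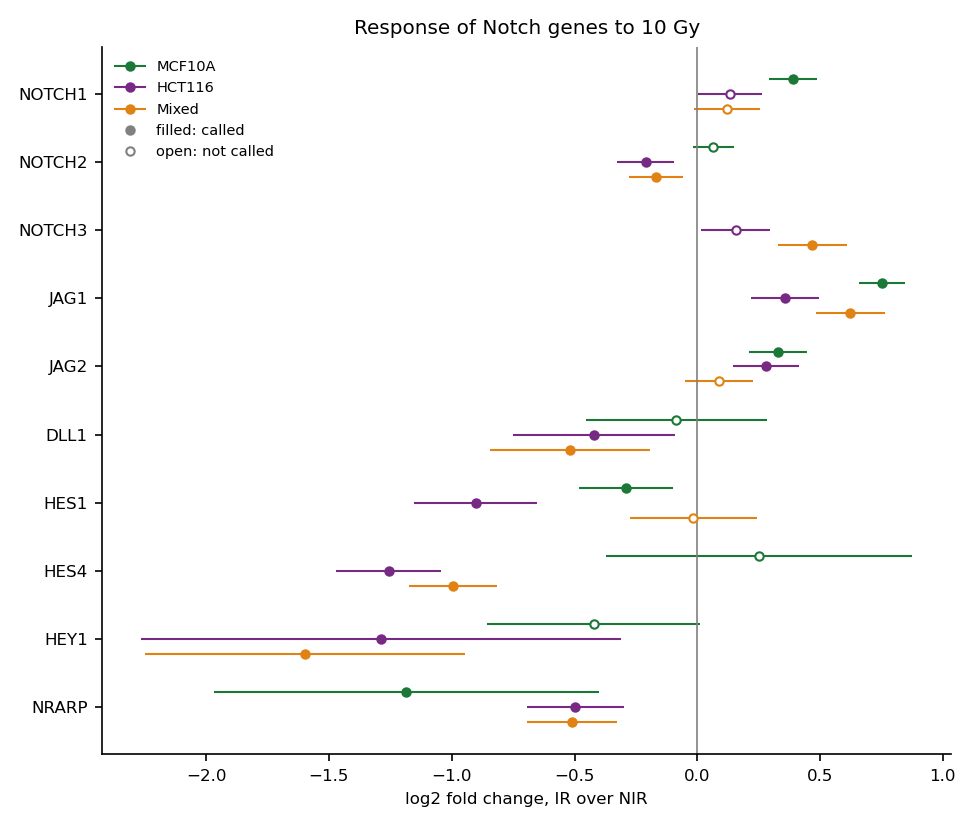
log2 fold change of IR over NIR (horizontal axis) of each gene in MCF10A, HCT116 and mixed cultures, with 95% intervals from the standard error. Filled points passed an adjusted p of 0.05 in edgeR, and NOTCH3 in MCF10A was not tested. JAG1 lies to the right of 0 in all 3 cultures (0.75, 0.36 and 0.62), and HES4, HEY1 and NRARP lie to the left in HCT116 and mixed cultures.

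Of the members called after irradiation, the Jagged ligands were higher, and the targets and DLL1 were lower. In MCF10A 5 of the 9 members tested were called, against 55.4% of all tested genes: 3 higher (26.2% of all) and 2 lower (29.2%). In HCT116 8 of 10 were called, against 52.5%: 2 higher (25.3%) and 6 lower (27.2%). In mixed cultures 7 of 10 were called, against 49.4%: 2 higher (24%) and 5 lower (25.4%). The HCT116 calls of DLL1 and HEY1 were each lost in 5 of 15 other settings. As the members were chosen with earlier results of these data known, these counts are a description. The median log2 fold change of the members was 0.066, -0.316 and -0.092 in MCF10A, HCT116 and mixed cultures, beside 0.003, 0.007 and 0.012 over all genes. With upper-quartile factors the members called in MCF10A were 4 higher and 1 lower, and of all genes called there 57.5% were higher, against 47.4%. All targets called among the members were lower: 2 of 4 in MCF10A, 4 of 4 in HCT116 and 3 of 4 in mixed cultures. HES2, of the further list, rose in all 3 cultures.

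Between the lines 9 of 10 members were called without irradiation, against 74.8% of all genes, with 5 higher in HCT116 (38.7%) and 4 lower (36.1%). After irradiation 9 of 10 were called, against 74.9%, with 4 higher (38.1%) and 5 lower (36.8%). These shares are near the background, and NOTCH3 passed the filter only through HCT116. With upper-quartile factors 62.4% of all genes called without irradiation were higher in HCT116, against 51.8%, and 60.2% after irradiation, against 50.9%. With library size alone these shares were 62.2% and 62.4%. Under both scalings the called members kept their directions, while DLL1 after irradiation, which was not called, went from -0.17 to 0.01 with upper-quartile factors and 0.06 with library size alone.

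**Figure D4:**
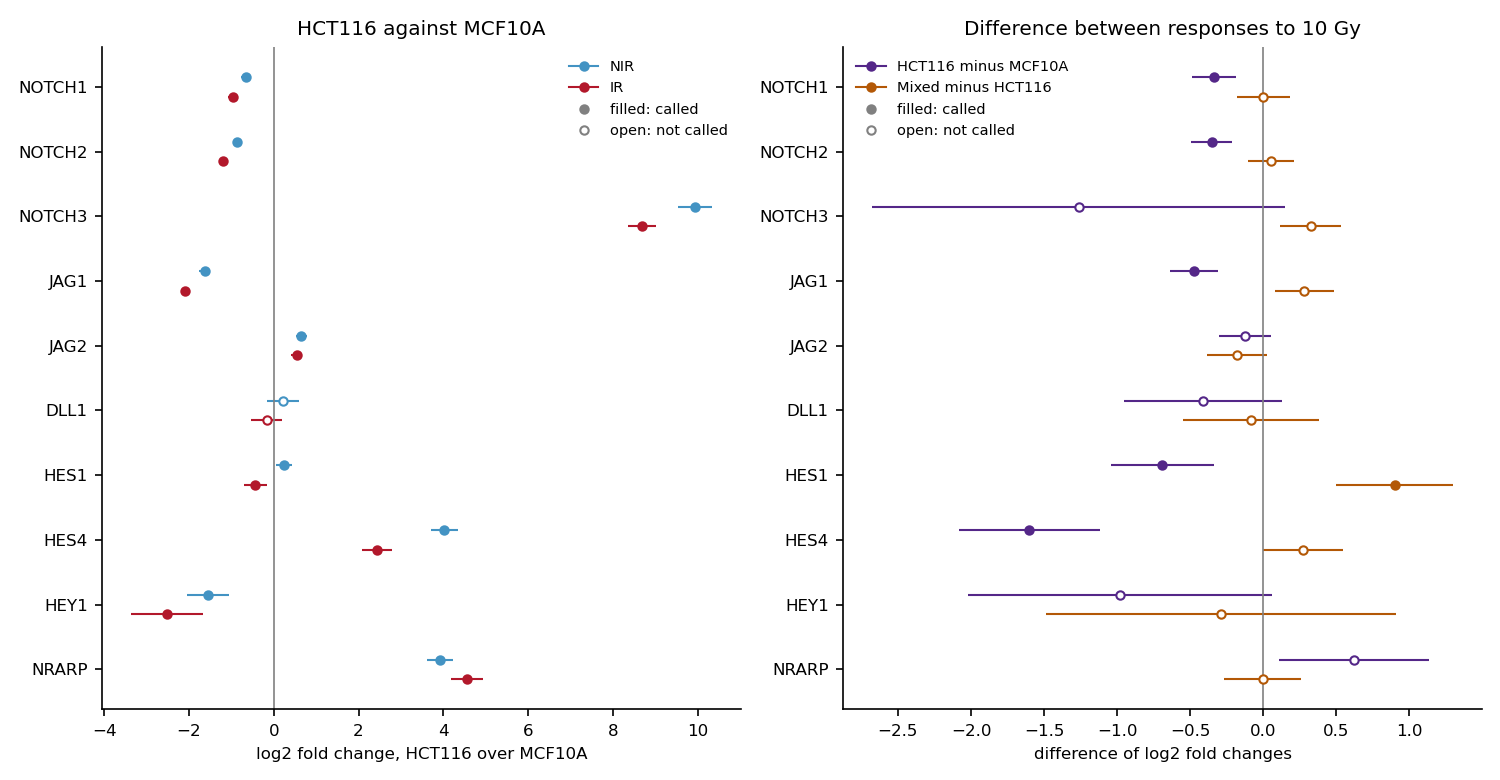
Left, log2 fold change of HCT116 over MCF10A by treatment. Right, difference between log2 responses to 10 Gy, HCT116 minus MCF10A and mixed minus HCT116. Lines are 95% intervals from the standard error and filled points passed an adjusted p of 0.05. The differences between the lines span -2.51 to 9.93, and the 5 filled points of HCT116 minus MCF10A all lie below 0.

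HCT116 and MCF10A were next compared in their responses, in one fit of the 12 monoculture libraries. Of 10 members 5 were called, against 37.3% of all genes, and all 5 were lower in HCT116 (21.9% of all genes were called lower and 15.4% higher). The balance over all genes depended on the setting. Of the genes called, 41.3% were higher in HCT116, against 52.5% without mitochondrial and top 10 genes, 51.8% in one fit over 18 libraries and 51.9% without the filter. Without MCF10A IR replicate 1, 2 or 3 it was 52.8%, 53.3% or 53.9%, and without HCT116 IR replicate 2 it was 53.2%. Under these settings the all-gene median lay between -0.056 and 0.008, and 4 or 5 members were called lower. On simulated data, with 200 genes changed and no difference in the others, 11.2% of the genes called in this comparison were false. The fit of the data called far more genes, so that share does not carry over to it. The log2 difference was -0.33 for NOTCH1 (SE 0.077, adjusted p 0.0012) and -0.47 for JAG1 (SE 0.083, adjusted p 5.8e-05). For NOTCH2 it was -0.35 (SE 0.071, adjusted p 2.6e-04), for HES1 -0.69 (SE 0.179, adjusted p 0.0032) and for HES4 -1.60 (SE 0.245, adjusted p 9.9e-06). The NOTCH1 call was lost without MCF10A IR replicate 2 (-0.22, adjusted p 0.051) and without HCT116 IR replicate 2 (-0.21, adjusted p 0.053). The other members did not pass: JAG2 at -0.13 (95% interval -0.31 to 0.05), DLL1 at -0.41 (-0.95 to 0.13), HEY1 at -0.98 (-2.02 to 0.06), NOTCH3 at -1.26 (-2.68 to 0.15) and NRARP at 0.62 (0.11 to 1.13, adjusted p 0.066). NRARP was called in 5 of 21 other settings, and HEY1 at -1.57 without HCT116 IR replicate 3 (adjusted p 0.027). NOTCH3 entered this fit only through HCT116, and its MCF10A side rests on 8 counts in NIR and 19 in IR. Without MCF10A NIR replicate 3, which holds 6 of the 8, NOTCH3 passed at -2.65 (adjusted p 0.031), on too few counts to be read. The median of the members was -0.443, beside -0.105 over all genes.

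Against HCT116 alone, the mixed cultures differed in few members. Without irradiation 2 of 10 were called, against 2.04% of all genes, both lower in the mixture (1.15% of all genes were called lower and 0.887% higher). HES1 was lower by log2 -0.77 (SE 0.131, adjusted p 0.0025), from 27.9 ± 1.71 to 16.0 ± 3.67 CPM, and this call held in all 15 other settings. NOTCH3 was lower by -0.29 (SE 0.073, adjusted p 0.040), a call lost in one fit over all libraries (0.09) and in 5 of 6 fits that left out a library (0.092 to 0.24); it held without Mixed NIR replicate 2. After irradiation 2 of 10 were called, against 8.56%, both higher (5.08% of all genes were called higher and 3.48% lower). JAG1 was higher by 0.30 (SE 0.060, adjusted p 0.0013) and HES4 by 0.38 (SE 0.112, adjusted p 0.030). The HES4 call was lost in 5 of 6 fits that left out a library (adjusted p 0.06 to 0.12), and held without HCT116 IR replicate 3. The 8 other members in each of these contrasts did not pass, with values between -0.14 and 0.39.

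These differences were set beside the level that the monocultures would give at the estimated share of MCF10A RNA. For JAG1 in Mixed IR that sum was 76.5 CPM, of which 3.33 came from MCF10A, and 91.7 CPM was measured. For HES4 in Mixed IR it was 11.0 CPM against 14.5 measured. For HES1 in Mixed NIR it was 27.8 CPM against 16.0 measured, and for NOTCH3 in Mixed NIR 94.7 against 76.7. With the shares from summed CPM the sums were 78.3 (5.81 from MCF10A), 10.9, 27.8 and 94.4 CPM, in the same order. Which medium the mixtures grew in is not given, and its part in these differences was not tested.

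**Figure D5:**
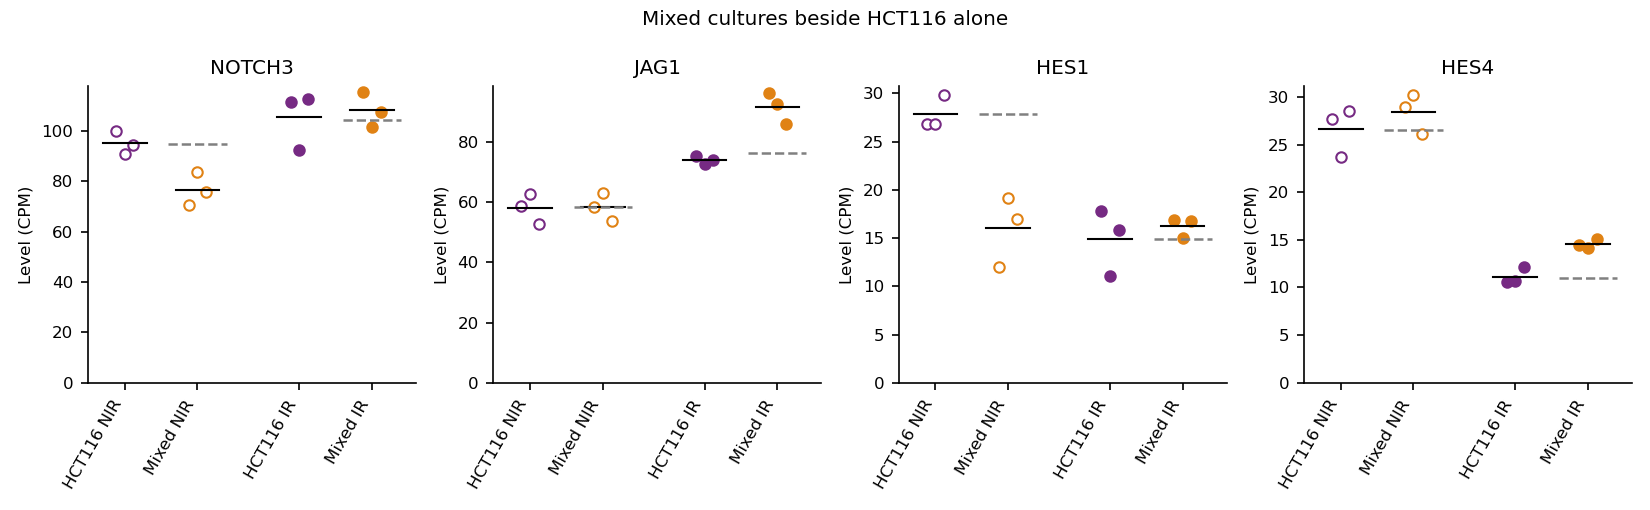
Level in CPM (vertical axes from 0) of the 4 genes called between mixed cultures and HCT116 alone. Points are libraries, open without and filled with irradiation, and black lines are means of 3. Grey dashed lines are the sums of the monoculture means weighted by the estimated MCF10A share. HES1 in Mixed NIR lies at 16.0 CPM against a dashed line at 27.8, and JAG1 in Mixed IR at 91.7 against 76.5.

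The responses of the mixed cultures and of HCT116 alone differed for 1 of 10 members, against 0.83% of all genes (0.681% called higher and 0.149% lower). That was HES1, at 0.90 (SE 0.204, adjusted p 0.029), which changed by -0.90 in HCT116 alone and by -0.02 in the mixture. This call was lost in 9 of 12 fits that left out a library, at adjusted p 0.055 to 0.12; the value was lowest, 0.69, without HCT116 IR replicate 2. NOTCH3 at 0.32 (95% interval 0.11 to 0.53, adjusted p 0.18) and JAG1 at 0.28 (0.08 to 0.48, adjusted p 0.23) did not pass. This comparison uses the same HCT116 libraries as the response of HCT116 and the contrasts with the mixed cultures.

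The further list of 46 Notch pathway genes had 26 of 38 tested genes called in irradiated MCF10A (16 higher and 10 lower), 20 of 41 in HCT116 (11 and 9) and 21 of 41 in mixed cultures (13 and 8). Over all genes 55.4%, 52.5% and 49.4% were called, so the counts in HCT116 and mixed cultures are near the background. Its median log2 fold change was 0.187, 0.053 and 0.073. Among the further receptors, ligands and targets, HES2, another HES repressor, rose in all 3 cultures: by 1.39 in MCF10A (SE 0.057, adjusted p 9.4e-18), by 1.93 in HCT116 (SE 0.079, adjusted p 3.0e-15) and by 1.66 in mixed cultures (SE 0.087, adjusted p 1.5e-12). Its level was 36.7 ± 0.733 CPM in MCF10A NIR, 97.8 ± 2.21 in MCF10A IR, 23.8 ± 1.67 in HCT116 NIR and 90.3 ± 6.25 in HCT116 IR. BHLHE40, a repressor that also answers to hypoxia, rose by 0.74 in MCF10A (SE 0.056, adjusted p 5.0e-12) and fell by 0.84 in HCT116 (SE 0.065, adjusted p 1.8e-10). DLL4, a Delta-like ligand, fell by 1.21 in HCT116 (SE 0.302, adjusted p 0.0018), from 244 to 109 counts in all. HES7 fell by 0.89 in MCF10A (SE 0.158, adjusted p 2.1e-05), and HES6 fell by 0.51 in mixed cultures (SE 0.101, adjusted p 2.7e-04). Neither was particular to that culture: in HCT116 the mean of HES7 went from 0.731 to 0.253 CPM and that of HES6 from 23.7 to 16.0. In MCF10A HES6 was low, at 1.01 CPM in NIR and 1.485 in IR.

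Of the 7 genes of the nuclear complex and its cofactors, 2 rose and 4 fell in MCF10A, 0 rose and 2 fell in HCT116, and 2 rose and 4 fell in mixed cultures. Over all genes 26.2%, 25.3% and 24% were called higher and 29.2%, 27.2% and 25.4% lower in these cultures, and classes this small are counted as a description. RBPJ, the DNA-binding partner, fell in all 3: by 0.18 in MCF10A (SE 0.047, adjusted p 0.0016), by 0.41 in HCT116 (SE 0.060, adjusted p 4.4e-06) and by 0.48 in mixed cultures (SE 0.065, adjusted p 2.7e-06). MAML2, a Mastermind coactivator, fell by 0.75 in HCT116 (SE 0.122, adjusted p 1.8e-05) and by 0.61 in mixed cultures (SE 0.110, adjusted p 9.5e-05). Of the 9 genes of receptor cleavage, 5 rose and 1 fell in MCF10A, 2 rose and 0 fell in HCT116, and 2 rose and 1 fell in mixed cultures. Of the 5 genes that place sugars on Notch, RFNG, a Fringe enzyme, rose by 0.53 in MCF10A (SE 0.131, adjusted p 0.0012), by 0.83 in HCT116 (SE 0.090, adjusted p 5.7e-08) and by 0.81 in mixed cultures (SE 0.091, adjusted p 2.1e-07). POGLUT1, an O-glucosyltransferase, fell by 0.43 in MCF10A (SE 0.088, adjusted p 1.5e-04). In the group of 15 genes of ligand uptake, turnover and inhibition, the ubiquitin ligases MIB2 and NEURL1B moved apart in MCF10A, by 1.05 (SE 0.109, adjusted p 3.2e-09) and -0.75 (SE 0.135, adjusted p 2.8e-05). Their means moved the same ways in the other cultures, without overlap between treatments. In HCT116 MIB2 went from 29.5 to 39.4 CPM and NEURL1B from 37.4 to 22.6. In mixed cultures MIB2 went from 30.5 to 39.2 CPM and NEURL1B from 38.0 to 30.7. DTX3L, a Deltex ubiquitin ligase, rose by 0.80 in HCT116 (SE 0.079, adjusted p 1.3e-08) and by 0.99 in mixed cultures (SE 0.074, adjusted p 4.1e-10). DTX1 rose by 0.86 in mixed cultures (SE 0.304, adjusted p 0.023), from 122 to 248 counts in all, and this call was lost in 4 settings.

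Between the lines, 36 of 42 tested genes of the further list were called without irradiation (16 higher in HCT116 and 20 lower) and 35 of 42 after it (14 and 21), against 74.8% and 74.9% of all genes. HEYL, a relative of HEY1, had no counts in any MCF10A library and stood at 15.1 ± 1.71 CPM in HCT116 NIR and 15.6 ± 0.115 in HCT116 IR. Against a floor of 3 counts over the 3 MCF10A libraries it was higher at least 496-fold without and at least 461-fold with irradiation, or 248-fold and 230-fold if each read pair was counted as 2. HES6 was higher in HCT116 by 4.33 (SE 0.205, adjusted p 1.6e-12) without and 3.22 (SE 0.182, adjusted p 1.3e-14) with irradiation. DLL4 was higher by 5.12 without irradiation (SE 0.665, adjusted p 1.8e-06), from 6 counts in MCF10A, and DTX1 by 3.23 after it (SE 0.612, adjusted p 3.9e-05). HES7 was lower by log2 -3.62 (SE 0.241, adjusted p 2.0e-10) and -4.34 (SE 0.353, adjusted p 2.4e-11), and DLK2, an atypical ligand, by -2.47 (SE 0.178, adjusted p 6.4e-10) and -2.11 (SE 0.152, adjusted p 2.1e-12). DTX3 had 164 and 224 counts in MCF10A NIR and IR and 2 and 10 in HCT116.

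Between mixed cultures and HCT116 alone, 1 of 41 further genes was called without irradiation and 3 of 41 after it, against 2.04% and 8.56% of all genes, which is near the background. The first was BHLHE40, at -0.47 (SE 0.097, adjusted p 0.012), which was lost in 4 settings. After irradiation HES2 was lower by log2 -0.27 (SE 0.062, adjusted p 0.0047), and NEURL1B was higher by 0.43 (SE 0.087, adjusted p 0.0013). LFNG, a Fringe enzyme, was higher by 0.59 (SE 0.155, adjusted p 0.014), which was lost in 3 settings.

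Over the 18 libraries the member levels, as log2(CPM + 1), were compared with those of 14129 genes as a description. All 18 points share the gap between the lines. NRARP was nearest to MPP2 (Pearson r 0.997), HES4 to SHISA8 (0.997) and NOTCH2 to IGF1R (0.996). JAG1 was nearest to TM7SF3 (0.992), NOTCH1 to LRP1 (0.991), JAG2 to SHANK3 (0.984) and HEY1 to TPM3 (0.947). DLL1 and HES1, the members that differed least between the lines, had lower best values, with RECK (0.798) and ACSS2 (0.793).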

How the data were processed

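Human MCF10A, HCT116 and mixed cultures were profiled by mRNA sequencing in 18 libraries, prepared with a stranded kit per the labels' protocols. Per the submitters' processing notes, fastp, STAR and featureCounts were used with GRCh38; versions, annotation and strand setting are not given in the sources used here. The authors deposited 1 table of raw counts per gene symbol and library (40916 symbols, 10180 without a count). Of the values from 1 to 10, 68.3% were even, so fits with counts halved were added. Replicates of a group differed by a chi-squared per gene of 4.77 to 14.0 (2.39 to 7.0 with counts halved), and none was a copy of another. The labels call them biological replicates and say no more, so p-values measure the spread between these libraries.

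From the counts, CPM, the share of MCF10A RNA (median over genes of at least 20 CPM in one line that stayed below 1 CPM in each library of the other) and 9 comparisons were computed. Each comparison used edgeR 4.0.16 in R 4.3.3 (TMM, filterByExpr, quasi-likelihood test, 2-sided) on the whole table and only the compared groups. Adjustment was Benjamini-Hochberg over all genes tested, and a gene was called at an adjusted p under 0.05. The standard error (SE) was the log2 fold change over the square root of F, and 95% intervals are 1.96 SE. Alternatives were other scalings, DESeq2 1.42.0, no filter, replicate number as a block, halved counts, removal of mitochondrial and top 10 genes, one fit over 18 libraries, and each library left out.

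Tested on simulated data, the test recovered 70.1% of changes of 0.5 and 75.5% of changes of 1 on the log2 scale in MCF10A (14864 genes), and 57.6% and 73.7% in HCT116 (16496 genes). For the difference between their responses it recovered 36.1% and 60.6% (17513 genes). Simulated counts were drawn from a common mean per gene, with 200 genes changed in a single group. False calls were 4.7%, 5.93% and 11.2% of the calls in these 3 simulations. The fits of the data called far more genes, so these shares do not carry over to them. The members and the further list were chosen with earlier results of these data known. Of the further list, up to 3 genes per direction and comparison with the largest called log2 fold change were named, provided the higher group averaged 1 CPM or more and libraries did not overlap (not asked of response differences). Some genes that the plan named are not reported here.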

Additional observations from a re-analysis of the deposited data

Results flagged for a closer look

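The results below are those in which the responses of 2 kinds of culture to 10 Gy differed by a test of the difference itself, in edgeR's quasi-likelihood test with an adjusted p under 0.05 over all genes. For HCT116 minus MCF10A these were, on the log2 scale, HES4 (-1.60), NOTCH2 (-0.35), HES1 (-0.69), NOTCH1 (-0.33, lost in 2 of 21 other settings) and JAG1 (-0.47) among the members. Of the further list 20 of 42 tested genes were called, 5 higher and 15 lower. Over all genes 37.3% were called, 15.4% higher and 21.9% lower. Only the largest in each direction are named here. They were DLL4 (-3.60), BHLHE40 (-1.66), HES6 (-1.12), DTX3L (0.81), POGLUT1 (0.49) and FBXW7 (0.49), a ubiquitin ligase of the Notch intracellular domain. The DLL4 value rests on 6 and 30 counts in MCF10A NIR and IR; without MCF10A IR replicate 3, which holds 20 of the 30, it was -2.67 and not called (adjusted p 0.056). On simulated data with only 200 changed genes, 11.2% of the genes called for this difference were false, a share that does not carry over to these calls. For mixed cultures minus HCT116 the results flagged were HES1 (0.90) and BHLHE40 (0.64), which were lost in 9 and 11 of 21 other settings. Groups of 3 were too small for a test of single libraries that stand apart.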

How the results depend on the processing

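No called value changed direction under any setting. Of the values of the members under other settings, 1392 kept their side of the threshold, 50 lost the call and 13 gained it, and the cause was not tested where none is given. Between Mixed NIR and HCT116 NIR the count of called genes, 335, was 575 with DESeq2, 671 without the filter, 716 with the replicate block and 768 in one fit over 18 libraries, which called 1 member instead of 2. Leaving out a library gave 145 to 313 genes and 1 to 2 members there. Between Mixed IR and HCT116 IR the count of 1467 was 2220 with the replicate block, and leaving out a library gave 866 to 1312 genes and 1 to 2 members. For the response difference of mixed cultures and HCT116 the count of 150 was 327 with DESeq2 and 336 without the filter, and 64 to 197 genes and 0 to 1 members when a library was left out. In MCF10A leaving out a library gave 3 to 6 members called. The share of MCF10A RNA was 0.345% and 1.07% in Mixed NIR and IR with genes of at least 50 CPM, and 0.704% and 2.17% as a ratio of summed CPM. Replicate numbers were not taken to pair the libraries: in no pair of groups did all 3 same-numbered pairs have a correlation of deviations over 0.1. The 3 of 45 pairs over 0.1 lay between HCT116 NIR and Mixed NIR (0.136 and 0.209) and between HCT116 IR and Mixed IR (0.181), where the replicate block raised the counts of genes as above and called 2 members in each. Over all groups a library correlated best with its own number in 22 of 90 choices. Low counts limit HEY1 in HCT116, NRARP and HES4 in MCF10A, and NOTCH3 in MCF10A.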
